A study of Rattus norvegicus with 10 samples.

Results

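The 10 genes described here are the kinase genes Pim1 and Pim3, the cytokine signalling inhibitors Socs1, Socs2, Socs3 and Cish, the transcription factor gene Stat3, the receptor genes Il6st and Osmr, and the zinc finger gene Zc3h12d. They were chosen around Pim1 because Pim1 was higher in the maternal Western-style diet group in these same arrays. The differences of the 10 genes between the diets are therefore given as a description, without a test. Of 41012 probes on the array, 13 carry a RefSeq identifier of these genes, and each gene has at least 1 probe. On 5 or more of the 10 arrays, 6 of the genes had a probe well above background, among 16779 genes so measured. The 4 inhibitor genes Socs1, Socs2, Socs3 and Cish did not reach this. Of the 16779, 8270 carried a gene symbol and the rest were counted under the array's own identifiers. Shares of all tested genes given below include both kinds.

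The samples are mammary tumours of female Sprague-Dawley rats aged 110 days, described in the labels as tubular or papillary. For 5 tumours (WD1 to WD5) the dams had eaten a Western-style diet, which the labels describe as rich in fat and poor in fibre and trace elements, and for the other 5 (CD1 to CD5) a control diet. Dams ate these diets in late gestation (days 12 to 20) and while nursing (postnatal days 1 to 21). All daughters of both groups ate control diet after weaning and had received a single dose of N-methyl-N-nitrosourea (50 mg/kg), an alkylating carcinogen, at the age of 3 weeks. Whether each tumour stems from a different dam or litter is not given in the labels, so p-values measure the spread between tumours only. Each tumour was hybridised to 1 whole-genome Agilent array in 1 colour, and the number of arrays limits the precision. The 75th percentile of spot intensity on an array was 72.8 to 170 in the Western-style group and 85 to 226 in the control group. Probes well above background numbered 16685 to 21905 on Western-style arrays and 18587 to 21461 on control arrays. Levels are log2 intensity minus the 75th percentile of the same array, so a level of 0 lies at that percentile, and differences are Western-style minus control.

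Cytokines of the interleukin-6 family bind receptors that share the chain encoded by Il6st. Janus kinases on these receptors phosphorylate STAT3, which enters the nucleus and induces genes that include Pim1 and Socs3. Pim kinases are active as soon as they are made, so their amount is set largely by transcription and turnover, and they favour growth and survival. SOCS proteins close a feedback loop by blocking the receptors or the kinases. In the mammary gland STAT5 is known as the factor of milk production, and STAT3 as the factor of cell death and remodelling after weaning.

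Promoter windows are shown for 3 genes, from 250 bases before to 50 bases after the annotated start of the gene (RefSeq, GRCr8 build, plus strand). Whether transcription begins at the annotated start was not tested, so a window may miss the promoter itself. Cish and Socs1 are the members whose promoter holds the STAT core TTCNNNGAA, and Pim1 is the gene the set was built around. Capitals mark each match. The Cish promoter lies at chr8:116850719-116851018, the Socs1 promoter at chr10:5389324-5389623 and the Pim1 promoter at chr20:7556246-7556545.
Cish: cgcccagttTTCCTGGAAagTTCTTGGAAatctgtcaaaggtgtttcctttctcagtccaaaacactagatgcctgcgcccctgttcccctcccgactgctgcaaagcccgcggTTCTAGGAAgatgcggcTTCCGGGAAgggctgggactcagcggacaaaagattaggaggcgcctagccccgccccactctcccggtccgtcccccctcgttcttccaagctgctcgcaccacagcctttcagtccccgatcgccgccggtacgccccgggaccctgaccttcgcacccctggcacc
Socs1: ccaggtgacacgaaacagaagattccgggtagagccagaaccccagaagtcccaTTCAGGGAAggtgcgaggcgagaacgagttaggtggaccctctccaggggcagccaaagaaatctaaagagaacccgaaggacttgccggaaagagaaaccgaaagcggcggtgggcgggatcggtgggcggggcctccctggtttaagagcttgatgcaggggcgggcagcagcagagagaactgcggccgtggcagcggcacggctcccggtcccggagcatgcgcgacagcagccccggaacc
Pim1: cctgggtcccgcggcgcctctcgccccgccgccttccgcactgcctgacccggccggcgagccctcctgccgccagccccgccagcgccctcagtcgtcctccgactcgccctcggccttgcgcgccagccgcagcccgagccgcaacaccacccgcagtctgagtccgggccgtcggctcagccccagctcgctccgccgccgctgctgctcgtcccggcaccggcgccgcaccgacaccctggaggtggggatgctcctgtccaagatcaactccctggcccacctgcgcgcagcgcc
The Cish promoter holds 4 matches, which begin 241, 230, 136 and 119 bases before the start, and the Socs1 promoter holds 1, which begins 196 bases before it. The motif reads the same on both strands. Of 33469 rat promoters of this length, 8.87% hold it at least once, and 2 (0.0060%), Cish included, hold it 4 times or more. Such windows were available for 9 of the 10 genes, and those of the other 7, Pim1 among them, hold no match. With the shorter spacing TTCNNGAA, which 8.77% of promoters hold, Il6st has 1 match, and as it holds none of the first spacing these do not overlap. With the longer spacing TTCNNNNGAA, held by 7.28%, none of the 9 has one. A match is not a binding site, and a missing match says only that these letters are not in the window. Sequence outside the windows was not searched, so these genes may have the motif elsewhere.

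**Figure D1:**
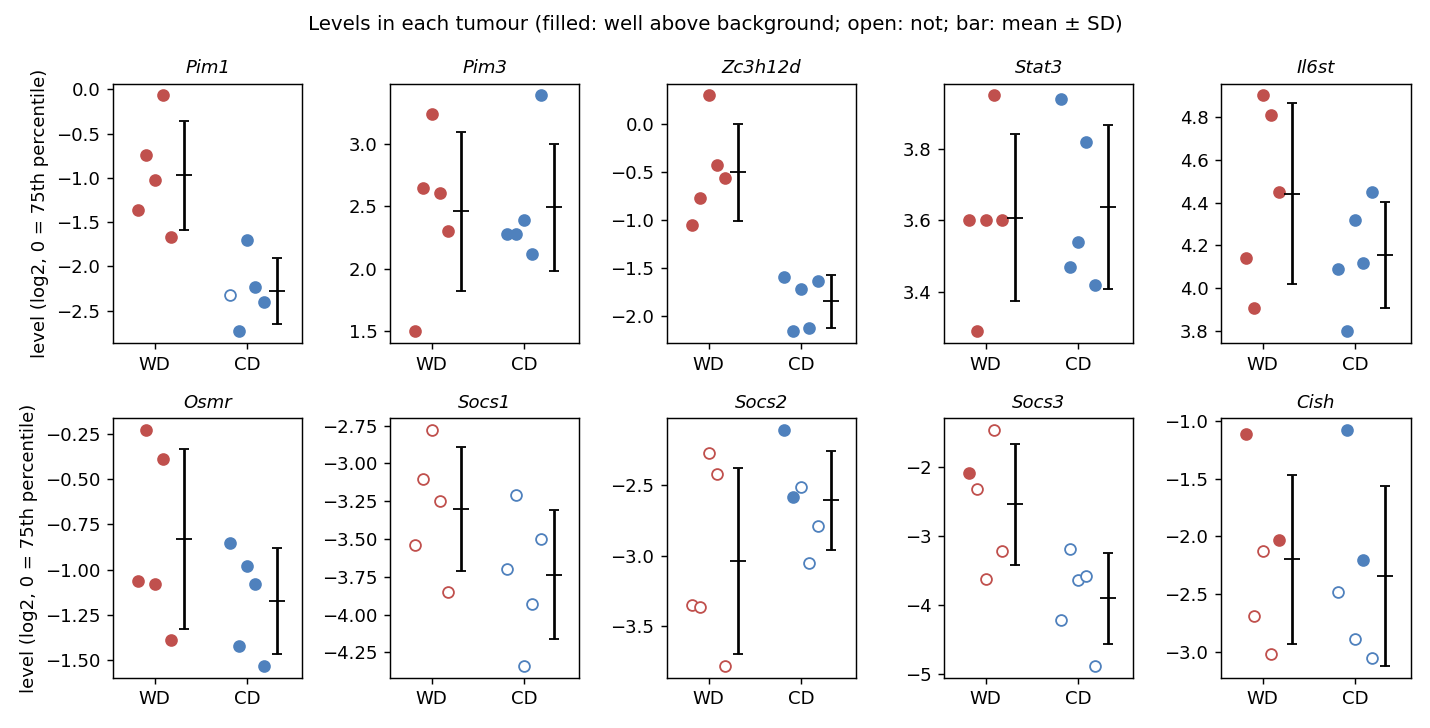
Levels of the 10 genes in each tumour, on the log2 scale relative to the array's 75th percentile (vertical axis, a separate scale per gene), for the Western-style diet group (WD, n = 5) and the control diet group (CD, n = 5). Filled points were well above background and open points were not, and bars show the mean ± SD; the 2 groups do not overlap for Pim1 and Zc3h12d, and most points of Socs1, Socs2, Socs3 and Cish are open.

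Pim1, a kinase gene induced by cytokines, had levels of -1.36, -0.74, -1.02, -0.07 and -1.67 in WD1 to WD5, against -2.32, -2.73, -1.70, -2.23 and -2.40 in CD1 to CD5. Every Western-style diet tumour lay above every control tumour, but the lowest of the first (WD5, -1.67) and the highest of the second (CD3, -1.70) nearly met. The means were -0.97 ± 0.62 in the Western-style group and -2.28 ± 0.37 in the control group (SD, n = 5 each), a difference of 1.30 or 2.47-fold. The groups did not overlap, with the Western-style group higher, for 1.34% of all tested genes. As Pim1 was chosen for this difference, nothing is read from that share. The probe (A_43_P11786) stood well above background on all Western-style arrays and on 4 of 5 control arrays, CD1 excepted. Its signal before scaling was 26.2 to 93.9 intensity units, and the error estimate of the scanner software was 12.3% to 24.6% of it.

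Pim3, a kinase gene of the same family, differed by less than the spread between tumours. It had levels of 1.50, 2.65, 3.24, 2.61 and 2.30 in WD1 to WD5, against 2.28, 2.28, 2.39, 2.12 and 3.39 in CD1 to CD5. The groups overlapped throughout, and WD1 was lowest while CD5 was highest of all 10 tumours. The means were 2.46 ± 0.64 and 2.49 ± 0.51 in the Western-style and control groups (SD, n = 5 each), a difference of -0.03. Without CD5 the difference was 0.19. The third family gene, Pim2, was not well above background on any array.

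Zc3h12d encodes a zinc finger ribonuclease of immune cells known from mouse and human. It had levels of -1.05, -0.77, 0.30, -0.43 and -0.56 in WD1 to WD5, against -1.59, -2.16, -1.72, -2.13 and -1.64 in CD1 to CD5. The groups did not overlap, which held in this direction for 1.34% of all tested genes, and the gap between them was wider than for Pim1. As Zc3h12d belongs to a set chosen with earlier results of these data known, nothing is read from this. The means were -0.50 ± 0.51 in the Western-style group and -1.85 ± 0.27 in the control group (SD, n = 5 each), a difference of 1.35 or 2.54-fold. Its probe was well above background on all 10 arrays. Of its relatives with a probe, Zc3h12c was not well above background on any array and Zc3h12a on 1 control array only.

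Stat3 was close to the same level in both groups. Its main probe (A_44_P787936) had levels of 3.60, 3.29, 3.60, 3.95 and 3.60 in WD1 to WD5, against 3.94, 3.47, 3.54, 3.82 and 3.42 in CD1 to CD5. The groups overlapped, with WD2 lowest of all 10 tumours, and the difference of the means was -0.03 (3.61 ± 0.23 against 3.64 ± 0.23, SD, n = 5 each). This probe is printed 10 times on each array, which gives the noise between spots of 1 hybridisation, but not that of labelling, hybridisation or scaling. The SD of the 10 spots was 0.058 to 0.145 within an array, below the SD of 0.234 between Western-style and 0.23 between control tumours. A further Stat3 probe (A_44_P381881) differed by -0.22, and the Pearson correlation of the 2 probes over the 10 tumours, with group means removed, was 0.45 as a description.

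Il6st, the receptor chain shared by the interleukin-6 family, had levels of 4.14, 3.91, 4.90, 4.81 and 4.45 in WD1 to WD5, against 4.09, 3.80, 4.32, 4.12 and 4.45 in CD1 to CD5. WD3 and WD4 were above every control tumour and the other 3 Western-style tumours lay within the control range. The difference was 0.29 (4.44 ± 0.42 against 4.16 ± 0.25, SD, n = 5 each), and 2 further probes differed by -0.03 and 0.36. Osmr, which pairs with that chain to bind oncostatin M, had levels of -1.06, -0.23, -1.08, -0.39 and -1.39 in WD1 to WD5, against -0.85, -1.42, -0.98, -1.08 and -1.53 in CD1 to CD5. WD2 and WD4 were highest and the rest overlapped, with a difference of 0.34 (-0.83 ± 0.49 against -1.17 ± 0.29, SD, n = 5 each).

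The 4 inhibitor genes were at the edge of what the arrays detected. Socs3, which STAT3 induces and whose protein blocks the Il6st chain, was well above background on 1 Western-style array (WD1) and on no control array. Its levels were -2.08, -2.32, -3.62, -1.46 and -3.21 in WD1 to WD5, against -4.22, -3.18, -3.64, -3.57 and -4.88 in CD1 to CD5. Western-style tumours WD1, WD2 and WD4 were above all control tumours, while WD3 and WD5 fell among them. The measured means were -2.54 and -3.90 in the Western-style and control groups. As 4 of 5 Western-style and all 5 control arrays did not measure Socs3 above background, no fold is given. The software error was 20.3% to 100% of the Socs3 signal.

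Cish, a target of STAT5 whose protein docks on cytokine receptors, passed the background test on 2 of 5 Western-style and 2 of 5 control arrays. It had levels of -1.11, -2.69, -2.13, -3.02 and -2.03 in WD1 to WD5, against -2.48, -1.08, -2.89, -2.20 and -3.05 in CD1 to CD5. The groups overlapped almost completely, and WD1 and CD2 were the high tumours. Socs2, a feedback inhibitor of growth hormone signalling, was well above background on no Western-style array and on 2 control arrays (CD1 and CD2). Its levels were -3.78 to -2.27 in the Western-style group and -3.05 to -2.11 in the control group. Socs1, which inhibits Janus kinases, was not well above background on any array, so no fold is given.

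Array brightness, the 75th percentile of intensity, differed between the groups and was set beside the members. Before scaling, the Pim1 signal was 43.5, 48.6, 35.8, 93.9 and 53.3 intensity units in WD1 to WD5, against 37.6, 30.7, 26.2, 40.4 and 42.9 in CD1 to CD5. On that scale WD3 fell among the control tumours, and the control arrays were the brighter ones except CD3. The Zc3h12d signal before scaling was 54, 47.4, 89.8, 73 and 116 units in WD1 to WD5. In CD1 to CD5 it was 62.4, 45.8, 25.8, 43.2 and 72.4, so WD1 and WD2 lay below CD1 and CD5. In a limma model of diet and log2 brightness, the Pim1 level changed by -0.64 ± 0.26 (SE) per doubling of brightness (unadjusted p = 0.0308, adjusted p = 0.393 over all genes). The level is the log2 signal minus that same percentile, so a signal that stayed constant would by itself give a negative slope. The share of tested genes at an adjusted p under 0.05 for brightness was 0%, and at an unadjusted p under 0.05 it was 11.8% (6.11% with a negative slope). Pim1 was the only one of the 6 measured members past the unadjusted threshold. With brightness as a covariate the Pim1 difference was 0.83 and the Osmr difference 0.04, instead of 0.34, while that of Zc3h12d was 1.16.

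**Figure D2:**
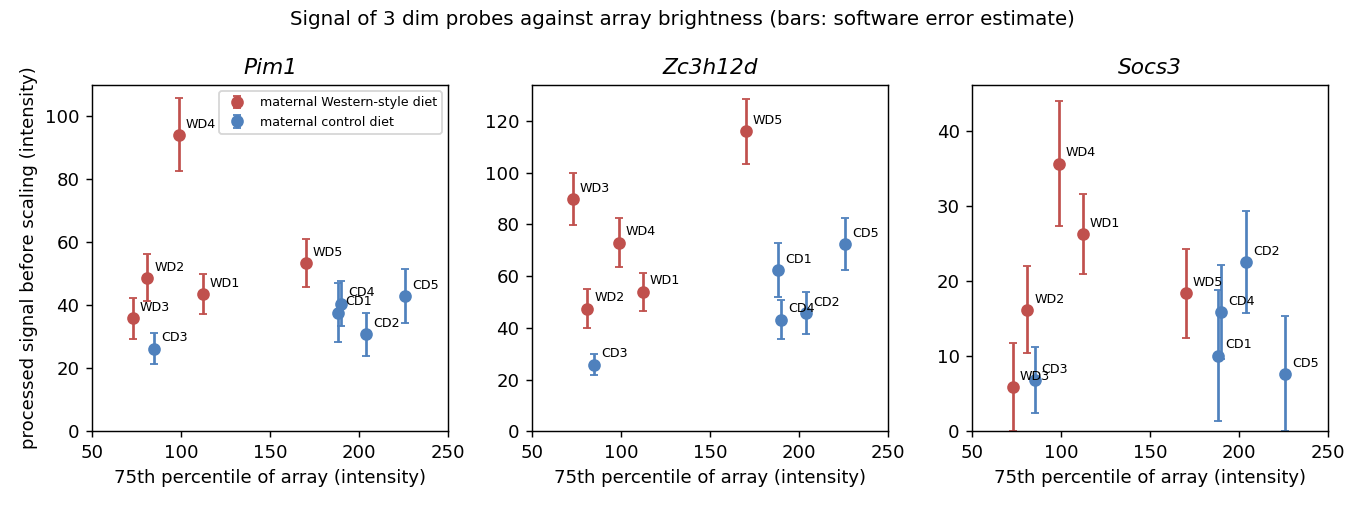
Processed signal before scaling (vertical axis, intensity) of Pim1, Zc3h12d and Socs3 against the 75th percentile of the array (horizontal axis, intensity), 1 point per tumour, with the software's error estimate as bars. Control tumours other than CD3 lie at 188 to 226 on the horizontal axis, and WD4 has the highest Pim1 signal at 93.9.

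The arrays lay on 3 slides, each scanned separately, and every slide held both groups. Slide 1 held 2 Western-style tumours and 1 control tumour, and slide 2 held 2 of each. Slide 3 held 1 Western-style tumour and 2 control tumours, so some differences within a slide rest on 1 tumour of a group. Within slides 1, 2 and 3 the Pim1 difference was 1.68, 1.50 and 0.60, and that of Zc3h12d 1.25, 1.61 and 1.31. With groups that do not overlap, these signs follow from the levels given above. The Osmr difference was 0.77, 0.52 and -0.43, so on slide 3, where WD5 was the only Western-style tumour, it ran the other way. In limma's F test of slide with diet in the model, 0 of the 6 measured members had an adjusted p under 0.05, where 2.32% of all tested genes did. Il6st came nearest (unadjusted p = 0.00237, adjusted p = 0.0795), with mean levels of 3.95, 4.62 and 4.22 on slides 1, 2 and 3. Zc3h12d had an unadjusted p of 0.0394 (adjusted p = 0.286). These 2 members were the ones under 0.05 unadjusted, where 16.0% of all tested genes were.

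The Pim1 and Zc3h12d differences kept their sign but not their size under other treatments of background and scale. Pim1 differed by 1.20 after quantile normalisation and by 1.05 with arrays scaled to their median, but by 0.61 after normexp background correction with the spots whose local background exceeded their signal left out of its fit, and by 0.23 in the authors' series matrix. Zc3h12d differed by 1.28, 1.10, 0.70 and 0.39 under the same 4 treatments. The matrix values rank as the median spot signals without background subtraction, and the part of that in the smaller differences was not tested. Scaling to the median moved the median of all tested genes to -0.24, and Stat3 and Pim3 (-0.28 each) lay near that median. Leaving out any 1 tumour gave 1.08 to 1.48 for Pim1 and 1.15 to 1.48 for Zc3h12d.

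**Figure D3:**
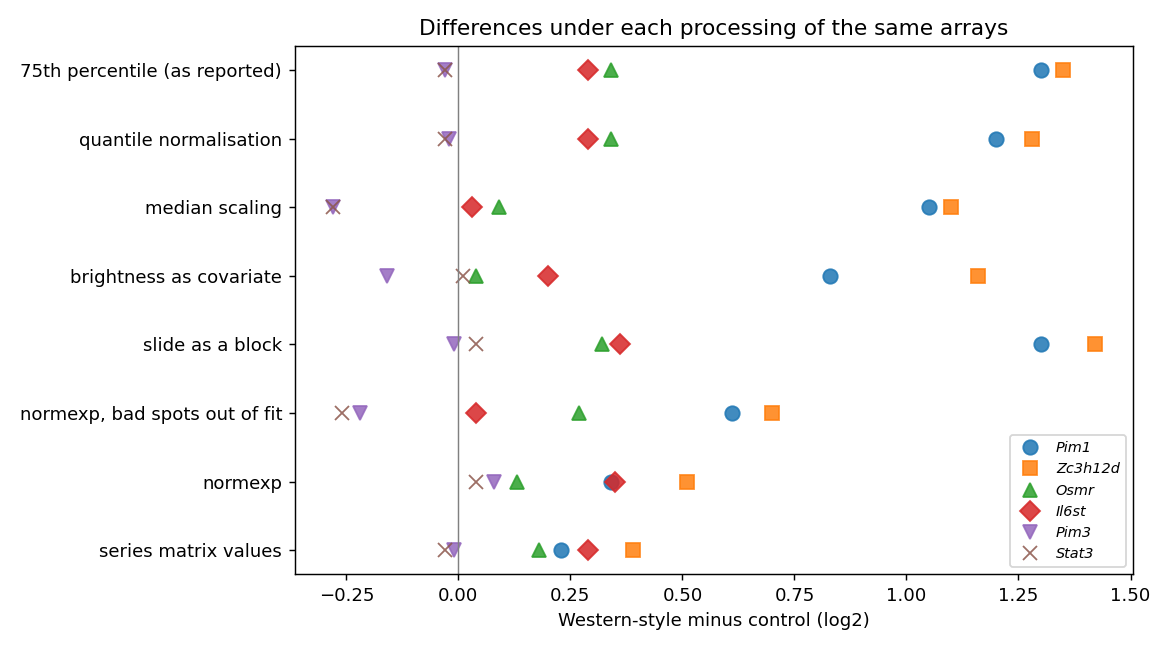
Difference Western-style minus control (horizontal axis, log2) of the 6 measured members under each processing of the same 10 arrays (rows). Pim1 and Zc3h12d are the 2 highest values in 6 of the 8 rows, from 1.30 and 1.35 as reported down to 0.23 and 0.39 in the series matrix, while Pim3 and Stat3 stay within 0.28 of 0.

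Whether members vary together within the diet groups was compared pair by pair. Each level was taken as its deviation from the mean of its own group, which removes the difference that chose the genes, and all 15 pairs of the 6 measured members were compared by exact two-sided permutation within groups. No pair passed adjustment over the 15 (lowest adjusted p = 0.161), although 3 pairs were under 0.05 unadjusted. Pim1 and Osmr had a Pearson r of 0.78 (exact permutation p = 0.0215, adjusted 0.161) and a Spearman rho of 0.82 (exact permutation p = 0.0157, adjusted 0.206) over 10 tumours. Without WD4 and CD2, the tumours farthest from the Pim1 median, r was 0.73. After normexp correction this pair passed, with r = 0.88 (exact permutation, adjusted p = 0.0125), but the normexp fit of CD5 had failed. With the spots whose local background exceeded their signal left out of the fit, r was 0.90 (exact permutation, adjusted p = 0.0167). That alternative was chosen after seeing the data. Both genes had negative slopes on array brightness (-0.64 for Pim1 and -0.40 for Osmr). With brightness as a covariate of the percentile-scaled levels, the lowest adjusted p of any pair was 0.19 (exact permutation). The pair had not passed on those levels without brightness either, and brightness was not added to the normexp runs. The part of brightness in this correlation was therefore not tested.

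The other pairs under 0.05 unadjusted both held Zc3h12d. Il6st and Zc3h12d had a Pearson r of 0.79 (exact permutation p = 0.0151, adjusted 0.161) and a Spearman rho of 0.68 (exact permutation p = 0.0412, adjusted 0.206), and r was 0.63 without WD3 and WD4. Pim3 and Zc3h12d had an r of 0.75 (exact permutation p = 0.0358, adjusted 0.179) and a rho of 0.70 (exact permutation p = 0.0383, adjusted 0.206), and r was 0.61 without WD3 and CD5. Pim1 and Zc3h12d themselves had an r of 0.22 (exact permutation p = 0.634) and a rho of 0.26 (exact permutation p = 0.507). Pim1 and Stat3 had an r of 0.31 (exact permutation p = 0.442) and a rho of 0.26 (exact permutation p = 0.507), and r was -0.44 without WD4 and CD2.

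**Figure D4:**
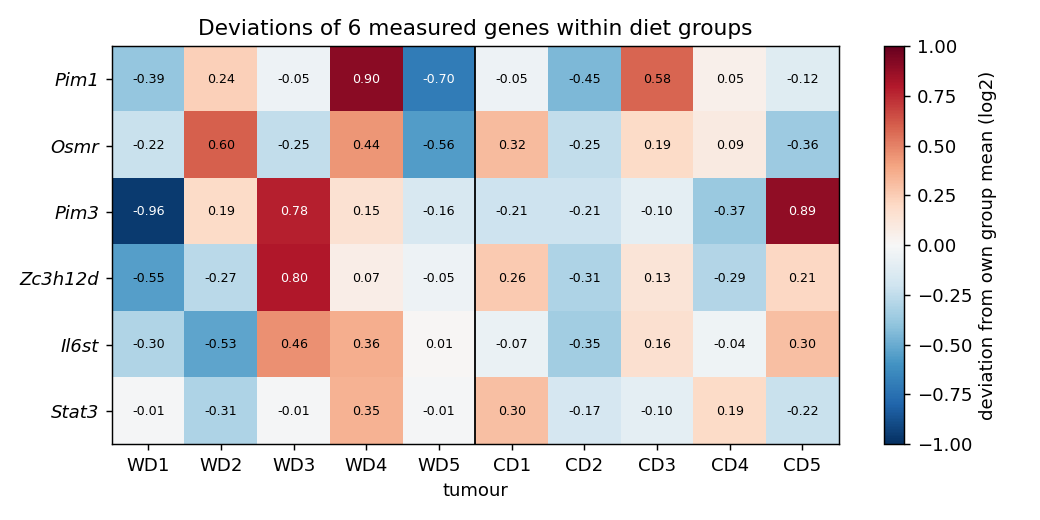
Deviation of each tumour from the mean of its own diet group (log2, colour and printed value) for the 6 measured members (rows) in WD1 to WD5 and CD1 to CD5 (columns). Pim1 and Osmr are both high in WD2, WD4 and CD3 and low in WD1, WD5 and CD2, and Pim3, Zc3h12d and Il6st are all high in WD3 and low in WD1.

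Among 8255 genes with a symbol, those most like Pim1 within groups were Dync1li1, Aste1, Ap1ar, Pde4d, Ebag9 and Tgfbr1, with Pearson r of 0.93 to 0.96 over 10 tumours as a description. The most unlike were Nr2f6, Dpp3, Slc25a1 and Babam1, with r of -0.97 to -0.96. Within groups these 4 genes had Pearson correlations of 0.71 to 0.76 with array brightness, and the 6 most like genes -0.75 to -0.46. Pim1 itself had -0.66, so these values follow in part from the choice of the genes and are no separate result. Osmr ranked 262 of 8255 by likeness to Pim1, and Il6st, the next of the members, ranked 2178. Most like Stat3 were Thap3, Slc49a4, Ivd and Plscr1 (r of 0.93 to 0.94), and most unlike were Apoa5 (-0.95) and Tbl3 (-0.89). The 4 most like had correlations of 0.09 to 0.39 with brightness and the 2 most unlike -0.15 to 0. Stat3 itself had 0.12, so these values also follow in part from the choice.

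The rest of the pathway was taken from lists of ligands, receptor chains, Janus kinases and STAT factors, inhibitors, STAT3 and STAT5 target genes, and Pim family genes and substrates, of which 69 genes were tested. In limma 0 of the 69 had an adjusted p under 0.05, and 0% of all 16779 tested genes did (lowest adjusted p = 0.136). At an unadjusted p under 0.05, 10 of the 69 were called, 6 higher and 4 lower in the Western-style group, where 15.5% of all tested genes were (7.80% higher and 7.72% lower). The count was 5 without CD1 or without CD2, 6 without CD4 or without CD5, and 5 with brightness as a covariate. It was 2 after normexp correction, whose fit of CD5 had failed, and 11 with the spots of high local background left out of that fit. With arrays scaled to their median it was 9, of which 1 was higher and 8 lower, relative to a median of all genes of -0.24.

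Of 13 cytokines that start the pathway 7 had a probe and 2 of these were tested. The probes of the other 5, Il6, Osm, Il11, Il10 and Csf3, were not well above background on any array. Ctf1, a further cytokine of this family, was -0.88 ± 0.46 in the Western-style group and -0.12 ± 0.53 in the control group (SD, n = 5 each), which is 1.69-fold lower (limma, unadjusted p = 0.0222, adjusted p = 0.254). Il6r, the chain that binds interleukin-6, was -1.05 ± 0.63 in the Western-style group and -1.84 ± 0.21 in the control group, 1.73-fold higher (limma, adjusted p = 0.224). All 5 Western-style tumours lay above the control mean of Il6r, and WD3 was highest at -0.03. Lepr, the leptin receptor gene, was not detected above background on any of the 10 arrays.

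Of 9 Janus kinase and STAT genes tested, 2 were lower at an unadjusted p under 0.05 and none higher, where 7.72% of all tested genes were lower and 7.80% higher. Stat5b was -0.70 ± 0.60 in the Western-style group against 0.09 ± 0.51 in the control group (SD, n = 5 each), 1.73-fold lower (limma, adjusted p = 0.268). Stat4, a factor of lymphocytes, was 1.63-fold lower (-1.71 ± 0.26 against -1.01 ± 0.49, limma, adjusted p = 0.214). All 5 Western-style tumours lay below the control mean for both genes. Stat5a differed by -0.06, Jak1 by 0.04 and Jak2 by -0.11, all less than the SD of either group. Among 10 inhibitors outside the members, Pias3, which binds STAT3, was 1.27-fold higher (1.74 ± 0.16 against 1.40 ± 0.23, limma, adjusted p = 0.317), and Socs4 and Socs5 differed by -0.04 and -0.23.

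Of 25 STAT3 target genes tested, 20 had a higher and 5 a lower mean in the Western-style group, with a median difference of 0.26. Over all tested genes 51.4% had a higher mean and the median difference was 0.01. At an unadjusted p under 0.05 there were 4 of the 25, all higher, the direction in which 7.80% of all genes were called. The protease inhibitor gene Serpina3n had levels of -0.17, -2.28, 0.33, -0.93 and 0.08 in WD1 to WD5, against -2.77, -0.99, -1.77, -2.74 and -3.43 in CD1 to CD5. WD2 fell among the control tumours, and the difference was 1.75 or 3.35-fold (limma, unadjusted p = 0.00834, adjusted p = 0.202). It was well above background on 4 Western-style and 2 control arrays, so its size is uncertain. Lrg1, an acute phase glycoprotein, was 1.94-fold higher (0.95 ± 0.60 against -0.01 ± 0.73, adjusted p = 0.264) and Bcl3, a cofactor of nuclear factor kappa B, 1.67-fold higher (4.28 ± 0.70 against 3.54 ± 0.47, adjusted p = 0.317), both in limma.

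The remaining gene of the 4, Hpx (hemopexin), was 1.47-fold higher (limma, adjusted p = 0.275) but well above background on 2 Western-style and 3 control arrays. Cebpd and Igfbp5, STAT3 targets of the involuting gland, had differences of 0.89 and 0.75 (limma, unadjusted p = 0.0589 and 0.108). Myc differed by 0.45, Fos by 0.15, Junb by 0.26 and Mcl1 by 0.04, and Birc5, a mitotic survival gene, by -0.79. The other STAT3 targets with a lower mean were Ccnd1 (-0.42), Bcl2l1 (-0.33), Il4r (-0.13) and Timp1 (-0.05). Lcn2, Hp and Lbp of the same list differed by 0.34, 0.22 and 0.17. Of 9 STAT5 target genes 1 was called at an unadjusted p under 0.05, the prolactin receptor Prlr, at 2.04 ± 0.82 against 2.78 ± 0.20 (limma, adjusted p = 0.32). At that threshold 15.5% of all tested genes were called, 7.72% of them all in the lower direction, so nothing is read from these small counts. None of 9 Pim substrate genes was called, and Bad, Cdkn1a and Cdkn1b differed by -0.21, 0.29 and -0.23.

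**Figure D5:**
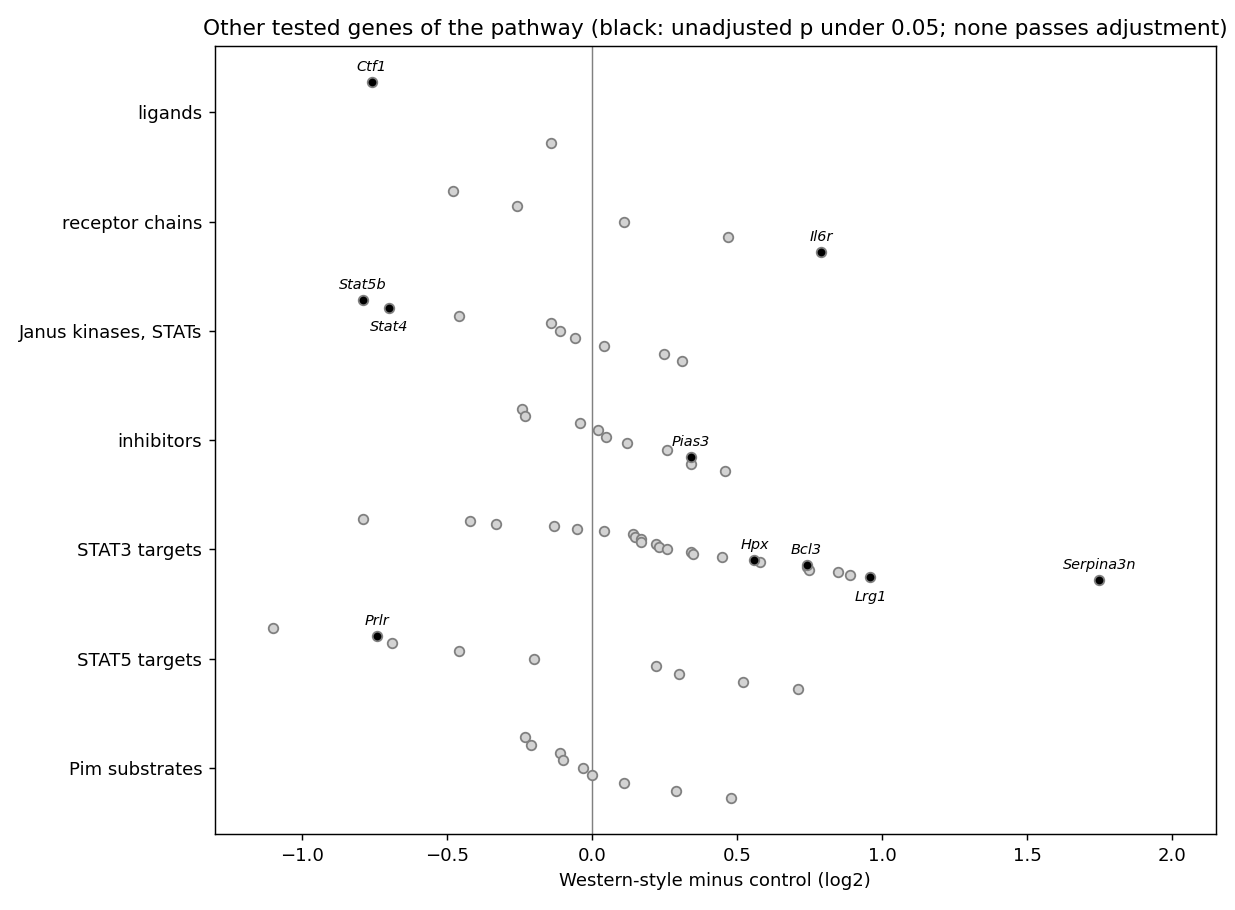
Difference Western-style minus control (horizontal axis, log2) of each tested pathway gene outside the 10 members, grouped by role (rows), with black points at an unadjusted p under 0.05 in limma and grey points above it. The 10 black points are 6 higher and 4 lower genes, and 20 of 25 STAT3 targets lie right of 0.

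Marker lists of T and NK cells, macrophages, neutrophils, fibroblasts, endothelium and adipocytes had higher means in the Western-style tumours. Those of mast cells and basal cells had lower ones, and the ranges of all these lists overlapped. Each list was averaged over its measured genes to 1 level per tumour. In these bulk samples fewer cells of a type and less RNA per cell cannot be told apart. All 7 measured of 12 T and NK cell genes had higher means, with list levels of -0.01 to 1.84 in Western-style tumours and -0.56 to 0.70 in control tumours. Cd4 was not well above background on any array, and Lck, Cd2, Cd5 and Cd8a were not kept. All 11 measured of 12 macrophage genes had higher means (1.59 to 3.58 against 2.11 to 2.80), as had the 3 measured of 8 neutrophil genes (-1.17 to 1.96 against -2.15 to 0.19), of which Cxcr2, Mmp8 and Mmp9 were not well above background anywhere. No B cell gene of 8 was kept, and Blk and Cd22 were not well above background on any array. Of 7 mast cell genes, all measured, 2 had higher means (list levels -1.42 to 0.85 against -0.03 to 1.18). All 8 fibroblast genes had higher means (2.06 to 3.83 against 1.35 to 3.16). So had the 3 measured of 7 endothelial genes (-0.87 to -0.06 against -1.37 to -0.37) and the 1 measured of 7 adipocyte genes. Of 5 measured basal genes, 1 had a higher mean (list levels 1.53 to 2.53 against 1.59 to 3.45).

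The tumours carried luminal epithelial genes, of which 8 of 10 were measured, and 2 of these 8 had higher means in the Western-style group. List levels were 3.03 to 3.51 in the Western-style group and 3.56 to 4.13 in the control group. These ranges do not overlap, but how often that occurs for such list levels was not computed, so nothing is read from it. Within groups, 24 relations between the 6 measured members and the levels of 4 lists (luminal, fibroblast, macrophage, T and NK cells) were compared by exact permutation. None passed (lowest adjusted p = 0.846). Zc3h12d and the T and NK cell level had an r of 0.52 (exact permutation p = 0.184) and a rho of 0.32 (exact permutation p = 0.4), and r was -0.11 without WD3 and CD4. Pim1 and the T and NK cell level had an r of 0.22 (exact permutation p = 0.616) and a rho of 0.04 (exact permutation p = 0.928). The part of these cell types in the differences between the diets was not tested.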

How the data were processed

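Arrays were extracted by the authors in Agilent Feature Extraction, version 11.5.1.1 per the file headers and 15.5 per the submitters' processing notes. The deposited files give spot intensity as background-subtracted processed signals, not scaled between arrays, with an error estimate and marks for spots above background. The deposited series matrix holds log2 values. Its columns ranked as the median spot signals of their own arrays (Spearman correlation 1), and the sources used here do not name the tool that made it.

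Of 45018 spots, 1639 controls and all outlier spots were left out, and spots of a probe were averaged. The 75th percentile of each array was subtracted from log2 signals. A probe was kept when well above background on at least 5 arrays (19745 of 41012). RefSeq names (GRCr8) matched 17502 probes through their transcript identifiers, and the array annotation is on build rn4, so no probe positions are given. Where more than 1 probe of a gene was kept, that of highest mean level was used.

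All genes were fitted with limma 3.58.1 in R 4.3.3 (Benjamini-Hochberg over 16779 genes) and tested on simulated data. Pairs were compared by 14400 exact orders within groups. Plots used matplotlib 3.10.9. The normexp alternative used median spot signals, as the files used here hold no mean signals. Named genes were the 10 members, up to 4 genes of smallest p per pathway list, and the genes most like and unlike Pim1 (6 and 4) and Stat3 (4 and 2). Genes named beside these, such as Stat5a, Jak1, Myc and Cebpd, were chosen after their values were seen. The members and lists were chosen with earlier results of these data known.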

Additional observations from a re-analysis of the deposited data

Results flagged for a closer look

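Pim3 in CD5 stood far from the other control tumours. Its level was 3.39, where the other 4 control tumours lay between 2.12 and 2.39. The gap to the nearest tumour was 0.785 of the range of the group, above the critical value of 0.71 for 5 samples. This was the 1 flag in 20 groups checked (10 genes in 2 diets), and chance flags about 1 in 20.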

How the results depend on the processing

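In limma, 0 genes of the whole table and 0 of the pathway genes outside the members had an adjusted p under 0.05 in any of the 21 alternatives. The count at an unadjusted p under 0.05 was 2603 of 16779 (1308 higher, 1295 lower), 496 (348 higher, 148 lower) with normexp, 7055 with dim probes kept (5997 higher, 1058 lower) and 963 with brightness as a covariate. It was 3640 with median scaling (331 higher, 3309 lower), 2289 in the series matrix values (851 higher, 1438 lower) and 1853 to 3283 without any 1 tumour. The pathway count of 10 was 2 with normexp, 5 with brightness and 5 to 13 without any 1 tumour. With normexp 2 pairs of members passed (Pim1 with Osmr, and Stat3 with Il6st), and the normexp fit of CD5 had failed: its background mean was -600 with all spots and 39.3 once spots with local background above their signal were left out. With those spots left out, an alternative chosen after seeing the data, 1 pair passed (Pim1 with Osmr) and the count of all genes was 3640. Without any 1 tumour 0 pairs passed. Slide and brightness tests called 0 members under each of the 4 alternatives run. The differences of Pim1, Zc3h12d, Socs3, Il6st and Osmr stayed above 0 under all alternatives run for them, but fell to 0.01 for Socs3, 0.03 for Il6st and 0.04 for Osmr. As the groups do not overlap for Pim1 and Zc3h12d, leaving out 1 tumour could not change their signs. The signs of Pim3, Socs1, Socs2, Cish and Stat3 changed under 4, 2, 1, 5 and 6 alternatives. With the replicate block the unadjusted count was 2676 for all genes and 10 for the pathway (7 higher, 3 lower), and 0 passed adjustment; same-numbered tumours shared deviations with correlations of -0.02 to 0.16, and 0 of 5 Western-style tumours correlated best with their own number. Signals near background limit the 4 inhibitor genes.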
